A study of Mus musculus with 4 samples.

Results

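The comparison is between 2 classes of cochlear neuron that the study's deposited cell annotation sets apart, type II spiral ganglion neurons and cells labelled putative spiral ganglion neurons. It covers 95 type II cells and 505 putative cells of 6713 annotated cells, the other 6113 being type I neurons. All cells came from 4 wild-type male CBA/CaJ mice aged 9 weeks, untreated as far as the labels say, and both classes were captured from every mouse. Mice 1 to 4 gave 23, 15, 34 and 23 type II cells and 58, 181, 121 and 145 putative cells. The tissue of both ears of a mouse was pooled, dissociated and captured as 1 droplet library of 3' transcript ends, so a mouse is a library and is the replicate. Unique molecular identifiers (UMIs, each standing for 1 captured transcript) were summed per mouse and class, which gave 4 sums a side paired by mouse, and each level below is in CPM, the UMIs of a gene scaled to a common total of 1000000 UMIs per sum. The dissection took in spiral limbus and inner sulcus too, with some outer sulcus and organ of Corti. The sources used here do not say how the classes were assigned. The class of a cell and its UMIs come from the same measurement, so a gene that separates the classes is not independent of them.

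Spiral ganglion neurons carry sound signals from the cochlea to the brainstem. Type I neurons, the great majority, are myelinated and each contacts an inner hair cell, whereas the sparse type II neurons have thin unmyelinated fibres that run along the outer hair cells. In mouse the intermediate filament peripherin (Prph) and tyrosine hydroxylase (Th) are known marks of type II neurons, and each neuron is wrapped by satellite glia. The question is how the transcripts of the labelled type II cells differ from those of cells that carry only a tentative neuronal label.

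Type II markers were higher in the type II than in the putative sums. The labels come from the same measurement, so this is no independent check of them. The summed level of 7 type II markers (among them Prph, Th, Gata3, Ngfr and Calca) was 1044, 1785, 1711 and 2313 CPM in the type II sums of mice 1 to 4, against 226, 230, 253 and 182 CPM in their putative sums. The lowest type II value lay far above the highest putative value, and type I neurons had means of 240 to 257 CPM. The log2 difference was 2.90 ± 0.60 (SD, n = 4 mice), higher in 4 of 4 mice, with p = 0.125 by a two-sided exact permutation of signs over mice, the smallest p that 4 pairs allow. A sum of 9 general neuronal markers (Snap25, Tubb3, Rbfox3, Stmn2, Syt2, Nefl, Uchl1, Thy1 and Slc17a7) was 7175 ± 1193 CPM in type II and 7432 ± 987 CPM in putative cells, and those ranges overlapped. Single markers went both ways. Of the 9, 2 were called higher and 4 lower by edgeR's quasi-likelihood test (66.7%, against 14.3% of all genes), and 2 and 4 by DESeq2. The overlap of the sums does not make the classes alike in these markers. Of 8 tested type I markers 0 were higher and 6 lower by edgeR's quasi-likelihood test, with 0 higher at an unadjusted p under 0.05 and 0 by DESeq2, which called 5 lower; 14.3% of all genes tested were called. Without the cells of 3 or more Fabp7 UMIs (a glial gene), where 8.82% of all genes were called, 1 marker was higher and 4 lower. The POU factor Pou4f1 was called higher (0.84, adjusted p = 0.0421), and Lypd1 (adjusted p = 0.107) and Runx1 (0.0695) were not called. Lypd1, a membrane-anchored modulator of nicotinic receptors, was not called by DESeq2 (adjusted p = 0.44) or without mouse 4 (0.0672) either. Markers of hair cells were near 0 in both classes, at 4.96 ± 3.61 CPM in type II cells and 4.05 ± 2.83 CPM in putative cells, and Myo7a, Pou4f3 and Ocm had no UMI in type II cells.

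The cells behind the sums differed in depth and in mitochondrial share. Type II cells held medians of 21026, 9835, 10804.5 and 7874 UMIs in mice 1 to 4, against 8923.5, 5502, 4704 and 3459 UMIs in putative cells. Type II was deeper in every mouse, by 1.12 ± 0.19 on the log2 scale (SD, n = 4), with p = 0.125 by the same exact test. Mitochondrially encoded transcripts took 5.72% ± 1.14 of the UMIs of the median type II cell and 9.02% ± 1.39 of the median putative cell, lower in 4 of 4 mice (exact p = 0.125). The 4 type II sums held 131668 to 546679 UMIs and the 4 putative sums 717528 to 1602700 UMIs. Satellite glial markers were high in both classes, at 9027 ± 2159 CPM in type II and 8639 ± 472 CPM in putative cells against 1559 to 1644 CPM in type I neurons. Cells with 3 or more UMIs of Fabp7, a fatty acid binding protein of glia, numbered 6, 5, 13 and 14 among type II and 12, 39, 19 and 26 among putative cells, and the fit across genes and the summed values were repeated without them.

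Of 7598 genes tested, 1086 differed between type II and putative neurons (14.3%; edgeR quasi-likelihood test blocked by mouse, Benjamini-Hochberg adjusted p under 0.05 over all genes tested). Higher in type II were 567 (7.46%) and lower 519 (6.83%), and 525 differed by at least 2-fold. The median log2 difference over all genes tested was -0.02. The CPM of the 4 type II sums lay wholly outside those of the 4 putative sums for 1231 genes (16.2%). Without the cells of 3 or more Fabp7 UMIs, 636 of 7214 genes differed (8.82%), 336 higher (4.66%) and 300 lower (4.16%), of which 615 were also called with all cells, all in the same direction; 991 genes (13.7%) then had no overlap between the classes. DESeq2 called 576 genes with all cells, all among the 1086, and 371 without the Fabp7 cells.

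**Figure D1:**
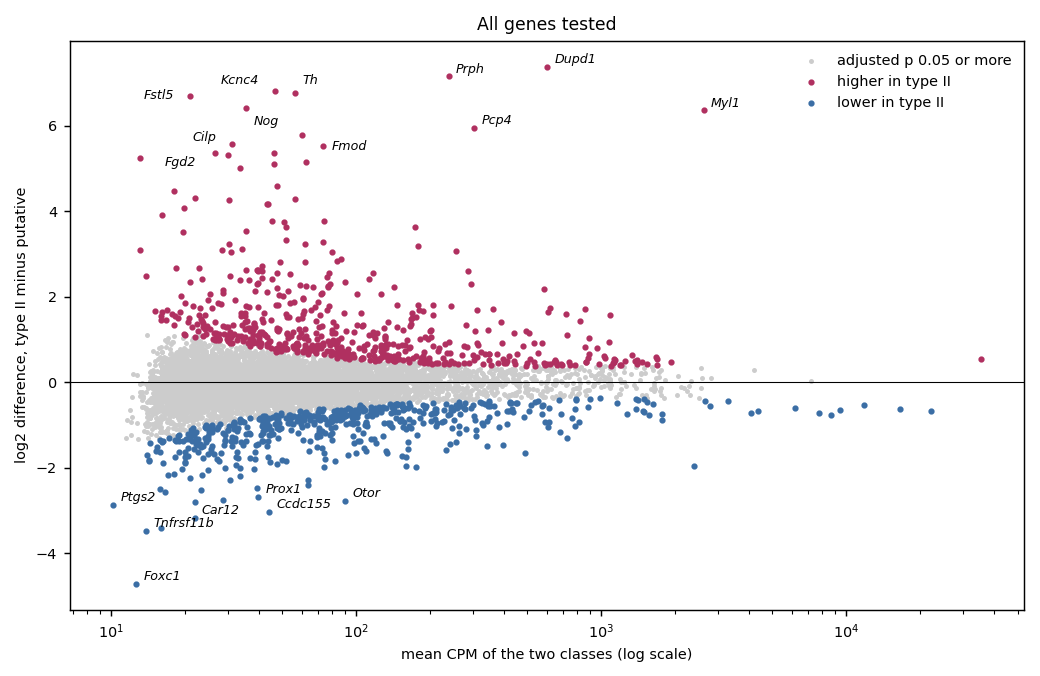
Log2 difference of each of the 7598 genes tested, type II minus putative (vertical axis), against the mean of the CPM of both classes (log axis), with called genes coloured and most of the 12 highest and 12 lowest named genes labelled. Dupd1 (7.38) and Prph (7.16) lie highest and Foxc1 (-4.71) lowest.

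Dupd1, Prph, Kcnc4 and Th had the largest differences toward type II among all genes tested, and Myl1 followed somewhat below them. Dupd1, a dual specificity phosphatase best known from muscle (chr14:21676537-21714576, GRCm38, minus strand), stood at 549, 1291, 1596 and 1354 CPM in the type II sums of mice 1 to 4, against 18.1, 3.12, 2.83 and 8.56 CPM in their putative sums. Mouse 1 was lowest among the type II sums and highest among the putative ones, with no overlap. The difference was 7.38 on the log2 scale (SE 0.29, 167-fold, adjusted p = 1.81e-19 by edgeR's quasi-likelihood test). Myl1, an alkali light chain of fast skeletal muscle myosin (chr1:66924295-66945404, minus strand), was at 2479, 6919, 5730 and 5612 CPM in type II against 61.3, 66.8, 68.8 and 47.1 CPM in putative cells. The type II sum of mouse 1 was again the lowest, and the difference was 6.36 (SE 0.21, 82.3-fold, adjusted p = 1.3e-21). Prph (chr15:99055174-99058978, plus strand) was at 165, 456, 384 and 895 CPM in type II against 1.39, 4.37, 1.89 and 4.28 CPM in putative cells, a difference of 7.16 (SE 0.24, 142-fold, adjusted p = 2.48e-21). A single type II cell of mouse 4 held 20.7% of all type II UMIs of Prph, while the largest share of 1 cell was 4.39% for Dupd1 and 6.47% for Myl1.

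The 250 bases before RefSeq's start site of Prph and Dupd1, and of Otor, which differed the other way, are shown so that the promoter sequences of genes at both ends of the comparison can be read side by side. They were read from RefSeq's mouse annotation on GRCm38.p6, 5' to 3' on each gene's own strand, in lower case, with capitals marking TATAAA on the gene's strand. Gene intervals in the text are GENCODE's, and for Otor RefSeq's start lies upstream of GENCODE's.
Prph, chr15:99054924-99055173, plus strand: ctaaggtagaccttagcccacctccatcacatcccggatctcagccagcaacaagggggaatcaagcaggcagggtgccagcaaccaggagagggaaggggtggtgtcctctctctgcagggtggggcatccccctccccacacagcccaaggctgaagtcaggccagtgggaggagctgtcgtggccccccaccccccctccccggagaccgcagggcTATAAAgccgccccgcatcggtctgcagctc
Dupd1, chr14:21714577-21714826, minus strand: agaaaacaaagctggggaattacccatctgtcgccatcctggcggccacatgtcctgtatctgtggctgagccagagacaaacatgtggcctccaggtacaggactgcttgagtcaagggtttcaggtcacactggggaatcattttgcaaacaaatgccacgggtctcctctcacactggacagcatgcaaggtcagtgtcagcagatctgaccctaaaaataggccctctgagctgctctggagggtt
Otor, chr2:143078143-143078392, plus strand: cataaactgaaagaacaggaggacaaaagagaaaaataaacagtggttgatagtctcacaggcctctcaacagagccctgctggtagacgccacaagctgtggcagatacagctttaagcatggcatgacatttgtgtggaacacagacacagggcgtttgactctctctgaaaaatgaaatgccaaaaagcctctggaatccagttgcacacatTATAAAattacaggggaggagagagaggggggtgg
TATAAA began at position -31 of Prph and -35 of Otor and was not in the window of Dupd1, and 7.59% of 32851 such windows hold it. The letters AGATAA or TGATAA, searched on both strands because Gata3 was among the genes higher in type II, were in none of the 3 windows and in 16.6% of all windows. These are matches of letters in a window and say nothing about binding.

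Muscle genes did not move as a set. Of 34 listed sarcomere and muscle genes, 7 had enough UMIs to be tested. Of these, 2 were higher in type II (Dupd1 and Myl1) and 3 lower, with a median log2 difference of -0.84 (71.4% called, against 14.3% of all genes). Desmin (Des), the intermediate filament of muscle, was at 5.49, 0, 2.56 and 0 CPM in type II against 44.6, 29.9, 27.3 and 18.2 CPM in putative cells, a difference of -3.40 (SE 0.54, adjusted p = 1.57e-05). Nebulin (Neb), which sets thin filament length, differed by -1.72 (SE 0.42, adjusted p = 0.00428) and smooth muscle actin (Acta2) by -1.55 (SE 0.41, adjusted p = 0.00736).

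Seen cell by cell, the leading genes were spread over most type II cells. To set depth aside, each cell was thinned to 2629 UMIs in 1 random draw, which left out 1 type II, 59 putative and 69 type I cells. A Myl1 UMI was then present in 77.9% ± 8.98 of type II cells and 14.0% ± 5.65 of putative cells (means ± SD over 4 mice), with 4.77% in type I cells. For Dupd1 the shares were 65.2% ± 15.1 in type II and 3.78% ± 4.38 in putative cells, with 0.584% in type I. For Prph they were 49.6% ± 14.6 in type II and 1.09% ± 1.29 in putative cells, with 0.288% in type I, and before thinning 61.8% and 2.33%. Pcp4, a small calmodulin-binding protein, was the exception among the leading genes. It differed by 5.96 (SE 0.33, adjusted p = 1.93e-15 by edgeR's quasi-likelihood test). But only 15.3% ± 11.1 of thinned type II cells and 3.32% ± 3.59 of putative cells held a UMI. Among type II cells, 1 cell of mouse 3 held 20.4% of the UMIs, and the sums ranged over 680, 45.6, 1032 and 636 CPM. Type II cells with a Prph UMI held 1 of the 921 type II UMIs of Pcp4. Their sums were at 0, 0, 0 and 6.27 CPM, against 11.1, 9.36, 8.48 and 2.14 CPM in putative cells.

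**Figure D2:**
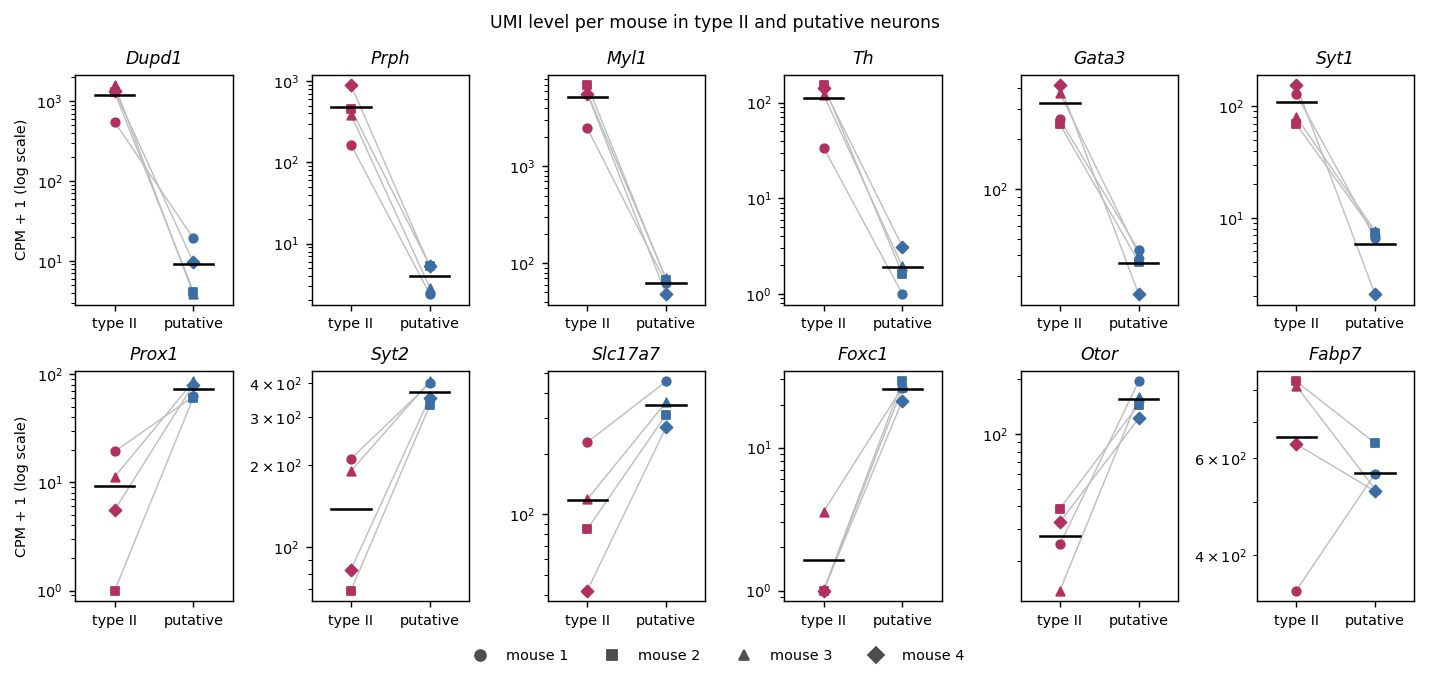
CPM + 1 (log axis, scaled per gene) of 12 genes in the type II (red) and putative (blue) sum of each of 4 mice; markers give the mouse, grey lines join the same mouse and black bars are means. The upper row and the first 5 genes of the lower row do not overlap between the classes, and Fabp7 does.

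Noggin (Nog), a secreted antagonist of bone morphogenetic proteins, was at 36.6, 98.7, 92.2 and 54.5 CPM in type II against 0, 0, 0.943 and 2.14 CPM in putative cells, and was higher in every mouse. With 81 type II and 3 putative UMIs, the ratio of the pooled levels was 90.4 (exact 95% interval 29.9 to 448, counting error only). Fibromodulin (Fmod), a collagen-binding proteoglycan, was at 143 ± 69.3 CPM in type II and 2.98 ± 2.45 CPM in putative cells (log2 difference 5.53, adjusted p = 3.33e-13). The cartilage protein Cilp was at 61.0 ± 29.2 CPM in type II and 1.23 ± 2.06 CPM in putative cells, and follistatin-like Fstl5, a secreted protein, had 47 type II UMIs against 1 putative UMI. Both were called with all cells. Without the Fabp7 cells, Cilp (28 type II UMIs against 2), Fstl5 (28 against 1) and Th (60 against 3) fell under the low-count filter, and each was still higher in 4 of 4 mice.

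Among 42 tested transcription factors, 7 were higher in type II and 9 lower (median -0.01, 38.1% called against 14.3% of all genes). Gata3, a zinc finger factor needed in cochlear neuron development, was at 260, 243, 374 and 418 CPM in type II against 41.8, 35.6, 39.6 and 22.5 CPM in putative cells, a difference of 3.19 (SE 0.20, adjusted p = 5.4e-14). Every type II value exceeded every putative value several-fold, and the putative values were near the type I means of 34.3 to 48.7 CPM. Ebf3, a factor of the early B-cell family, differed by 2.10 (SE 0.37, adjusted p = 6.73e-05). Also higher were the Notch target Hey1 (1.63) and Klf7 (1.17), a Kruppel-like factor of growing axons.

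On the lower side stood Prox1, a homeodomain factor of type I neurons. It was at 18.3, 0, 10.2 and 4.54 CPM in type II against 61.3, 59.9, 84.8 and 79.2 CPM in putative cells, without overlap, and at 76.2 to 83.7 CPM in type I. The difference was -2.67 (SE 0.35, adjusted p = 4.53e-07), and 8 of 95 type II cells held a Prox1 UMI against 191 of 505 putative cells. In the draw of thinned cells it was 0 of 94 type II cells, which allows a share of up to 3.19%, against 16.9% ± 3.46 of putative cells, and another draw can leave such rare UMIs in. Prox1os, annotated on the opposite strand at the 5' end of Prox1, differed by -2.52 (SE 0.45); the sources used here do not say whether counting used strand, so its reads and those of Prox1 may not be separable. Runx1 (-1.39), Esrrg (-1.17) and Casz1 (-1.89) were lower too, but Runx1 (adjusted p = 0.0695) and Casz1 (adjusted p = 0.0815) were not called without the Fabp7 cells, and Casz1 not without mouse 3 (adjusted p = 0.221).

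The voltage-gated potassium channels, which set how fast a neuron repolarises, split by subunit. Of 23 tested, 6 were higher and 10 lower (median -0.36, 69.6% called against 14.3% of all genes). Without the Fabp7 cells 6 were higher and 5 lower (47.8% called, against 8.82%). The Kv3 family, whose channels repolarise fast-firing neurons, was divided. Kcnc4 (Kv3.4) was at 45.7, 114, 105 and 105 CPM in type II against 0, 0.624, 1.89 and 0 CPM in putative cells, and the pooled ratio, 104 UMIs against 3, was 116 (exact 95% interval 38.6 to 572). Kcnc2 (Kv3.2) was at 150, 37.97, 97.3 and 45.4 CPM in type II against 4.18, 2.50, 5.66 and 4.28 CPM in putative cells, a difference of 4.17 (SE 0.34, adjusted p = 2.66e-11). Both were higher in type II in every mouse, with no overlap between the classes. The 2 genes parted in type II cells with a Prph UMI. There Kcnc4 was at 132 ± 31.8 CPM. Kcnc2 was at only 13.8, 12.2, 18.5 and 25.1 CPM in those cells (11 UMIs) and fell under the low-count filter.

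Kcnc1 (Kv3.1), of the same family, went the other way. It was at 313, 106, 105 and 118 CPM in type II against 350, 318, 352 and 310 CPM in putative cells (-1.08, SE 0.19, adjusted p = 9.85e-05). The type II sum of mouse 1 lay inside the putative range and the other 3 lay well below it. Kcna6, a Kv1 subunit, was higher in type II (1.76, SE 0.29, adjusted p = 3.93e-05).

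Sodium channels showed the same kind of division, with 2 of 9 tested higher and 3 lower (55.6% called, against 14.3% of all genes). Scn9a (Nav1.7), a channel of peripheral and pain-sensing neurons, was at 40.2, 114, 74.3 and 132 CPM in type II against 1.39, 1.87, 2.83 and 2.14 CPM in putative cells, a difference of 5.36 (SE 0.39, 41.0-fold, adjusted p = 1.88e-12). The auxiliary subunit Scn2b was higher by 2.88 (SE 0.23, adjusted p = 1.34e-11). The auxiliary subunit Scn4b (-1.55, SE 0.19, adjusted p = 1.83e-07) and the main subunit Scn8a (Nav1.6, -0.93, SE 0.21, adjusted p = 0.00187) were among the lower genes, and Scn8a was not called without the Fabp7 cells (-0.70, adjusted p = 0.05).

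Of 10 calcium channel genes, 1 was higher and 1 lower (20.0% called, against 14.3% of all genes). Without the Fabp7 cells 0 of 8 were called, so neither count is a result about the list. The auxiliary subunit Cacna2d2 was at 27.4, 91.1, 61.5 and 81.8 CPM in type II against 5.57, 7.49, 3.77 and 5.35 CPM in putative cells (3.53, SE 0.36, adjusted p = 5.01e-09). Without the Fabp7 cells it was below the low-count filter. The auxiliary subunit Cacng2 was lower (-1.12, adjusted p = 0.0231), but not called without mouse 2 (adjusted p = 0.0935), mouse 3 (0.186) or the Fabp7 cells (0.178). Among HCN, TRP, chloride, purinergic and acid-sensing channels 0 of 10 were higher and 3 lower by edgeR's quasi-likelihood test (30.0% called, against 14.3% of all genes). At an unadjusted p under 0.05, 2 were higher, and DESeq2 called 0 higher and 2 lower. In the repeat without the Fabp7 cells 1 was higher, the cation channel Trpc1 (1.22, adjusted p = 0.0275, against 0.87 and 0.076 with all cells), and 2 were lower. The 3 lower genes with all cells were the ATP receptor subunit P2rx6 (-1.99, adjusted p = 7.67e-05), the acid-sensing Asic3 (-0.62, adjusted p = 0.00112) and the pacemaker channel Hcn2 (-0.73, adjusted p = 0.00787), of which Hcn2 was not called without the Fabp7 cells (adjusted p = 0.127).

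Vesicle and release genes were called in both directions. Of 38 tested vesicle and release genes 9 were higher, 10 lower and 19 not called (median 0.04), where 14.3% of all genes were called. Without the Fabp7 cells 9 were higher and 8 lower (44.7% called, against 8.82%). The pairs named here were chosen after their values were seen. Synaptotagmin 1 (Syt1), a calcium sensor of vesicle fusion, was at 128, 68.4, 79.4 and 154 CPM in type II against 5.57, 6.24, 6.60 and 1.07 CPM in putative cells, a difference of 4.30 (SE 0.34, 19.7-fold, adjusted p = 1.65e-11). Synaptotagmin 2 (Syt2), the fast sensor of auditory synapses, was at 210, 68.4, 190 and 81.8 CPM in type II against 399, 331, 405 and 353 CPM in putative cells, a difference of -1.39 (SE 0.18, adjusted p = 3.6e-07). Neither gene overlapped between the classes.

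Further pairs were also picked for their values. Vamp2, a vesicle SNARE, was at 235 ± 45.9 CPM in type II and 49.3 ± 8.50 CPM in putative cells (2.23, adjusted p = 2.83e-11), whereas Vamp1 was at 220 ± 96.7 CPM in type II and 442 ± 43.1 CPM in putative cells (-0.997, adjusted p = 2.2e-05). Among complexins, which clamp and promote fusion, Cplx2 was higher (3.28, adjusted p = 3.7e-11) and Cplx1 lower (-0.62, adjusted p = 0.00114). Sncg, a presynaptic protein, was higher (2.18, adjusted p = 1.78e-12), whereas its relative Sncb was lower (-1.04, adjusted p = 2.11e-05). Rph3a, a Rab3 effector on vesicles, was higher (3.08), and the vesicle glycoproteins Sv2b (-1.37) and Sv2c (-1.78) were lower. Snap25, a membrane SNARE of all neurons, was called lower with all cells (-0.55, adjusted p = 0.00783) but not without the Fabp7 cells (adjusted p = 0.122) or without mouse 2 (adjusted p = 0.104), 3 (0.122) or 4 (0.0504).

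Glutamate transport followed both directions. The vesicular transporter Slc17a7 (VGLUT1) was at 227, 83.5, 118 and 40.9 CPM in type II against 456, 311, 359 and 270 CPM in putative cells, a difference of -1.58 (SE 0.18, adjusted p = 6.45e-08) with no overlap. Its relative Slc17a6 (VGLUT2) was at 227, 228, 218 and 123 CPM in type II against 97.6, 102, 112 and 123 CPM in putative cells, a difference of 0.86 (SE 0.18, adjusted p = 0.000617), higher in 3 of 4 mice. Of the 8 tested genes of transmitter synthesis and transport 2 were higher and 4 lower (75.0% called, against 14.3% of all genes). Th, at 32.9, 152, 120 and 141 CPM in type II against 0, 0.624, 0.943 and 2.14 CPM in putative cells, was the other higher gene (6.76, SE 0.41, adjusted p = 4.04e-14).

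Of 8 tested glutamate receptors 0 were higher and 4 lower by edgeR's quasi-likelihood test (median -0.52), where 14.3% of all genes were called. None was higher at an unadjusted p under 0.05 or by DESeq2, and DESeq2 called 2 of the 4 lower. In the repeat without the Fabp7 cells 0 were higher and 2 lower, where 8.82% of all genes were called. In that repeat 1 was higher at an unadjusted p under 0.05, and DESeq2 called 0 in either direction. The metabotropic receptor Grm7 differed by -1.73 (adjusted p = 0.00427), the NMDA subunit Grin1 by -0.85 (adjusted p = 0.00255) and the AMPA subunits Gria3 by -0.85 (adjusted p = 0.0035) and Gria4 by -0.79 (adjusted p = 0.0497). Without the Fabp7 cells Grin1 (adjusted p = 0.0525) and Gria4 (adjusted p = 0.327) were not called. Gria4 also lost its call without any 1 of the 4 mice, at adjusted p of 0.0566, 0.0686, 0.136 and 0.299 without mice 1 to 4, and Grm7 without mouse 3 (adjusted p = 0.0914) or by DESeq2 (0.0611).

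Of 16 tested calcium-binding proteins 2 were higher and 9 lower (median -0.46, 68.8% called against 14.3% of all genes). Hpcal1, a neuronal calcium sensor, was at 323 ± 77.4 CPM in type II and 25.9 ± 3.68 CPM in putative cells (3.64, SE 0.19, adjusted p = 7.19e-16), and Necab1 was higher by 5.00 (SE 0.45, adjusted p = 3.57e-10). Calretinin (Calb2), which is graded among type I neurons, was at 2908, 441, 1150 and 304 CPM in type II against 4642, 2926, 4969 and 1883 CPM in putative cells. The type II sum of mouse 1 overlapped the putative range, and 51.6% of all type II Calb2 UMIs came from 1 cell of that mouse. That cell held 79498 UMIs, 14.5% of the type II UMIs of its mouse, with 0 Prph and 0 Fabp7 UMIs, where the next type II cell held 53364, the largest putative cell 47928 and the largest type I cell 40783. Calb2 differed by -1.95 (SE 0.21, adjusted p = 1.15e-08) with it and by -2.37 (adjusted p = 4.24e-17) without it, and was not called under robust empirical Bayes (adjusted p = 0.0788). Parvalbumin (Pvalb), at 2918 ± 779 CPM in type II and 2672 ± 349 CPM in putative cells, did not pass the test (adjusted p = 0.737).

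Of 34 tested cytoskeletal genes 14 were higher and 4 lower (median 0.31, 52.9% called against 14.3% of all genes). Without the Fabp7 cells 13 of 33 were higher and 2 lower (45.5% called, against 8.82%). Gap43, a growth cone protein, was at 40.2, 30.4, 43.5 and 227 CPM in type II against 1.39, 6.24, 7.54 and 5.35 CPM in putative cells, a difference of 3.78 (SE 0.39, adjusted p = 6.17e-09). Mouse 4 stood apart, with 1 cell holding 33.3% of all type II UMIs of the gene. The tubulins Tubb2b (2.63, adjusted p = 1.01e-06) and Tuba1a (1.58, adjusted p = 1.4e-09) and the microtubule regulator Stmn2 (1.73, adjusted p = 4.31e-10) were higher, and the axonal neurofilament Nefh (-0.61) and the axon initial segment spectrin Sptbn4 (-0.75) were among the lower genes. Of 13 tested genes known from axonal injury 5 were higher (Gap43, Tubb2b, Stmn4, Lgals1 and Csrp1) and 0 lower by edgeR's quasi-likelihood test (38.5% called, against 14.3% of all genes). At an unadjusted p under 0.05, 2 were lower, and DESeq2 called 0 lower. Of the 5 higher genes, 3 are also in the cytoskeletal list.

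Of 24 tested axon guidance genes 4 were higher and 8 lower (median -0.49), where 14.3% of all genes were called. Without the Fabp7 cells 4 of 23 were higher and 6 lower (43.5% called, against 8.82%). The ephrin Efna5, a repulsive membrane ligand, was at 76.8, 137, 177 and 164 CPM in type II against 5.57, 11.2, 9.43 and 13.9 CPM in putative cells (3.77, SE 0.25, adjusted p = 2.89e-13), and the netrin receptor Unc5b was higher by 3.51 (SE 0.48, adjusted p = 1.2e-06). The ephrin receptor Epha4, known in type I neurons, was at 34.5 ± 20.6 CPM in type II and 113 ± 21.8 CPM in putative cells (-1.65, SE 0.24, adjusted p = 3.96e-06). The secreted semaphorins Sema3d (-2.57) and Sema3e (-1.83), the semaphorin receptor Nrp2 (-2.02) and the ephrin Efnb2 (-1.87) were lower, and Nrp2 was not called without mouse 3 (adjusted p = 0.0534).

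Adhesion and matrix genes leaned higher, with 13 of 36 tested higher and 6 lower (52.8% called, against 14.3% of all genes). But 6 of 31 were higher and 5 lower without the Fabp7 cells (35.5% called, against 8.82%). The protocadherin Pcdh17 was higher by 3.11 (SE 0.35, adjusted p = 2.93e-08). Pcdh9 (2.29, SE 0.34, adjusted p = 4.36e-06) was at 298, 22.8, 74.3 and 132 CPM in type II against 13.9, 33.1, 28.3 and 22.5 CPM in putative cells, higher in 3 of 4 mice, and was called neither by DESeq2 (adjusted p = 0.155) nor under robust empirical Bayes (adjusted p = 0.203). Of 17 tested genes of neurotrophic signalling 4 were higher and 2 lower (35.3% called, against 14.3% of all genes). The low-affinity neurotrophin receptor Ngfr was at 364, 524, 566 and 500 CPM in type II against 96.2, 91.7, 131 and 74.9 CPM in putative cells (2.29, SE 0.15, adjusted p = 3.33e-13), and the GDNF co-receptor Gfra1 was higher by 1.75 (SE 0.30, adjusted p = 4.35e-05). Neurturin (Nrtn), a ligand of that family, was lower (-1.504, adjusted p = 0.00428) but not called without the Fabp7 cells (adjusted p = 0.0856). Among 10 neuropeptides and granins the granin Scg2 was higher (5.32, SE 0.52, adjusted p = 1.4e-09) and the granin Chgb lower (-1.47, SE 0.15, adjusted p = 8.11e-09).

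The genes furthest down in type II fell into those near or below and those above the type I level in putative cells. Carbonic anhydrase 12 (Car12) was at 9.15, 0, 2.56 and 0 CPM in type II against 43.2, 46.2, 42.4 and 32.1 CPM in putative cells (-3.17, SE 0.48, adjusted p = 6.6e-06), where type I means were 34.2 to 76.4 CPM. The hyaluronan link protein Hapln1 (-2.75, adjusted p = 2.16e-06) and the nuclear envelope protein Ccdc155 (-3.03, adjusted p = 1.91e-08) were likewise near type I levels in putative cells, at 51.1 ± 3.37 and 79.2 ± 13.9 CPM against type I means of 53.4 to 67.3 and 81.9 to 161 CPM. Prox1 and Sema3d, at 71.3 and 28.0 CPM in putative cells, were near type I means of 76.2 to 83.7 and 19.7 to 39.3 CPM. Prox1os, at 40.8 CPM in putative cells, was below type I means of 54.1 to 58.3 CPM. These levels are set side by side with no test between putative and type I cells.

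Foxc1, Otor, Tnfrsf11b, Ptgs2, Des and Irx3 stood above type I neurons in the putative sums. Foxc1, a forkhead factor of mesenchyme (chr13:31806633-31812476, GRCm38, plus strand), had 0, 0, 2.56 and 0 CPM in type II, 1 UMI in all, against 25.1, 28.1, 25.5 and 20.3 CPM in putative cells, and 2.83 to 3.50 CPM in type I. The pooled ratio of putative over type II was 32.6 (exact 95% interval 5.72 to 1300, counting error only), and without the Fabp7 cells, with 0 UMIs in type II, Foxc1 was at least 8.09-fold lower in type II against a floor of 3 UMIs over the 4 mice. Otoraplin (Otor), a secreted protein of cochlear fibrocytes (chr2:143078473-143081713, plus strand), was at 23.8, 37.97, 12.8 and 31.8 CPM in type II against 194, 144, 158 and 121 CPM in putative cells (-2.77, SE 0.26, adjusted p = 5.23e-10), and 23.4 to 26.02 CPM in type I. Osteoprotegerin (Tnfrsf11b), a secreted decoy receptor, had 3 type II UMIs against 107 (putative over type II 10.7, interval 3.55 to 52.5), and cyclooxygenase 2 (Ptgs2), which makes prostaglandins, 3 against 80 (7.96, interval 2.63 to 39.4); DESeq2 did not call Ptgs2 (adjusted p = 0.0543).

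Fibroblast and mesenchyme markers, among them Otor from the genes above, were lower in type II as a sum. The summed level of 8 such markers was 454, 509, 328 and 445 CPM in type II against 1263, 1440, 1017 and 1471 CPM in putative cells, and 315 to 333 CPM in type I. Of 6 tested markers 5 were lower in type II by edgeR's quasi-likelihood test (83.3% called, against 14.3% of all genes). These were Otor, Dcn (-1.75), Coch (-1.65), Pou3f4 (-1.23) and Lum (-1.06), whereas Col1a2 was not called (adjusted p = 0.551). None of the 8 markers had 0 UMIs in either class. Pou3f4 was not called without mouse 1 (adjusted p = 0.325), mouse 2 (0.135) or mouse 4 (0.0663), and Lum not without mouse 4 (0.134) or the Fabp7 cells (0.081). DESeq2 called 3 of the 6 lower, and neither Pou3f4 (adjusted p = 0.269) nor Lum (0.106). Dcn, a matrix proteoglycan, was at 38.4, 175, 53.8 and 49.98 CPM in type II against 178, 362, 139 and 284 CPM in putative cells. These markers took over 0.2% of the UMIs in 1 of 95 type II cells (1.05%), 109 of 505 putative cells (21.6%) and 22 of 6113 type I cells (0.360%). Without those cells, an alternative chosen after seeing the data that removes cells by Otor, Dcn and Coch themselves, Otor differed by -2.09, Dcn by -0.94 and Coch by -0.84, all still called. Car12 (-3.21), Hapln1 (-2.74) and Prox1 (-2.59) moved little, Lum was not called (adjusted p = 0.333), and Foxc1, Tnfrsf11b, Des, Ptgs2 and Irx3 fell below the low-count filter. The part of fibroblast transcripts in the genes lower in type II was not tested further.

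**Figure D3:**
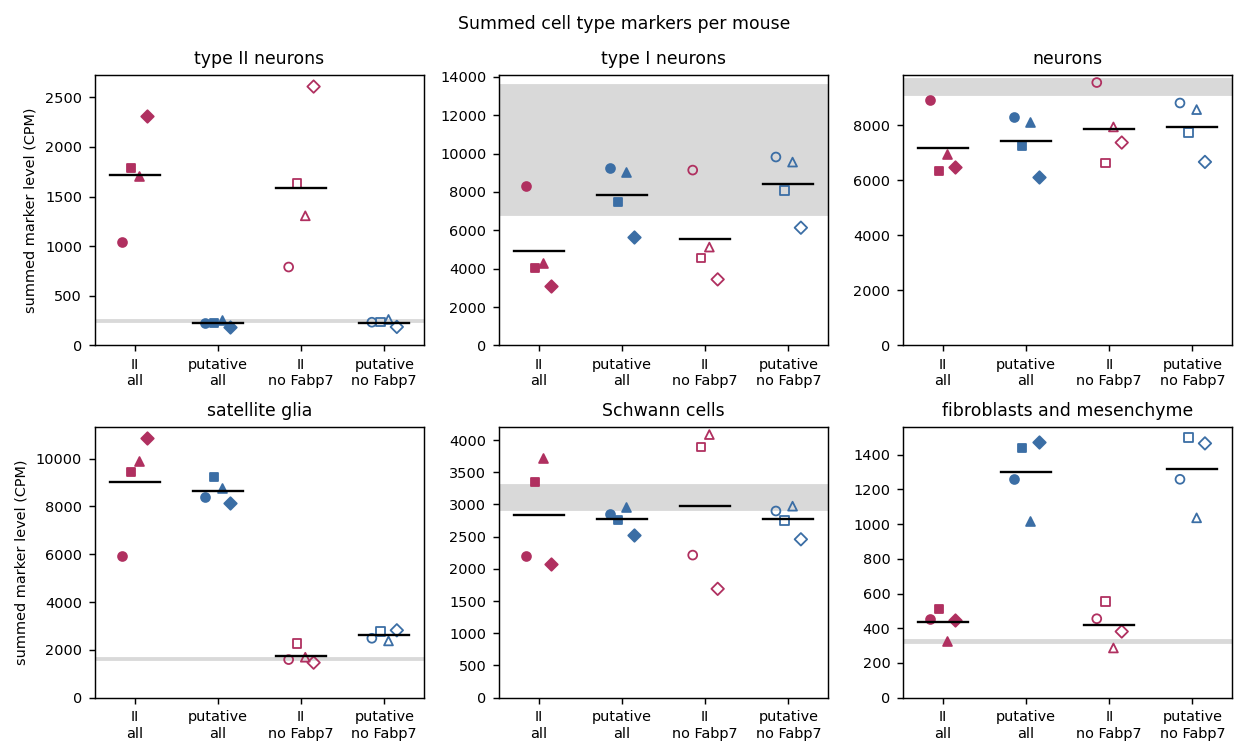
Summed CPM of 6 cell type marker lists per mouse (marker shapes as in the plot of single genes) in type II (II, red) and putative (blue) sums, with all cells (filled) and without cells of 3 or more Fabp7 UMIs (open); black bars are means and grey bands span the means of the type I subtypes. Type II markers are higher in type II, fibroblast markers higher in putative cells, and satellite glial sums come down in both classes without the Fabp7 cells.

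Glial transcripts did not separate the classes with all cells. The summed satellite glial level was 5910, 9448, 9893 and 10855 CPM in type II against 8411, 9226, 8781 and 8137 CPM in putative cells, a log2 difference of 0.03 ± 0.39 (SD, n = 4; exact p = 0.875). Mouse 1 was the only mouse with the lower value in type II. Of 7 tested satellite glial markers 0 were called in either direction by edgeR's quasi-likelihood test, with 1 lower at an unadjusted p under 0.05 and 0 by DESeq2, and of 6 Schwann cell markers 0 were called, with 0 at an unadjusted p under 0.05 and 0 by DESeq2. Fabp7 itself was at 344, 828, 812 and 636 CPM in type II against 562, 639, 527 and 522 CPM in putative cells (0.14, adjusted p = 0.642). Per thinned cell, Fabp7 was found in 38.4% ± 12.9 of type II and 19.6% ± 3.63 of putative cells, and in 3.33% of type I cells.

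Removing the cells of 3 or more Fabp7 UMIs left 17, 10, 21 and 9 type II and 46, 142, 102 and 119 putative cells, which took out 26.1% to 60.9% of type II and 15.7% to 21.5% of putative cells per mouse. Fabp7 is itself 1 of the 8 markers in the satellite glial sum, so the sum and its difference after this step follow in part from the rule and support nothing about glia. The glial sum then stood at 1751 ± 349 CPM in type II and 2612 ± 217 CPM in putative cells, lower in type II in 4 of 4 mice (-0.59, exact p = 0.125), and Apoe (-0.74, adjusted p = 0.00147), a lipoprotein abundant in satellite glia, was called lower. The levels of the leading type II genes stayed apart. Dupd1 was at 367, 1149, 1310 and 1309 CPM in type II against 2.99, 0.693, 3.04 and 2.37 CPM in putative cells, and Myl1 at 1820, 6318, 4070 and 5797 CPM in type II against 15.0, 20.1, 48.7 and 20.2 CPM in putative cells. The differences were 8.88 for Dupd1, 7.42 for Myl1 and 7.66 for Prph, each larger than with all cells.

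Mitochondrially encoded genes were mostly lower in type II with all cells. Of 13 mitochondrially encoded genes 0 were higher and 11 lower (median -0.66, 84.6% called against 14.3% of all genes). None was higher at an unadjusted p under 0.05 or by DESeq2. Without the Fabp7 cells 5 were lower (38.5% called, against 8.82% of all genes in that repeat). mt-Nd3, a subunit of respiratory complex I, was at 360, 235, 320 and 195 CPM in type II against 610, 381, 599 and 594 CPM in putative cells (-0.98, SE 0.15, adjusted p = 9.09e-06). Of 81 nuclear genes of oxidative phosphorylation 1 was higher and 13 lower (17.3% called, against 14.3% of all genes), and 0 and 3 without the Fabp7 cells (3.70% called, against 8.82%), so neither share is a result about the list; in the repeat 1 was higher at an unadjusted p under 0.05 and 0 by DESeq2. Cox8b, a subunit of cytochrome oxidase, was at 134, 45.6, 48.7 and 63.6 CPM in type II against 404, 148, 282 and 282 CPM in putative cells (-1.97, SE 0.19, adjusted p = 7.54e-10).

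Of 78 cytosolic ribosomal protein genes 24 were higher and 0 lower (median 0.33), with none lower at an unadjusted p under 0.05 or by DESeq2, and 5 were higher without the Fabp7 cells. The called share was 30.8% with all cells, against 14.3% of all genes, and 6.41% in the repeat, against 8.82%. Rpl3 had the largest difference of them, at 1094, 1443, 1186 and 1963 CPM in type II against 626, 725, 602 and 989 CPM in putative cells (0.93, SE 0.13, adjusted p = 1.2e-06). Of 35 immediate early and dissociation genes, which respond within minutes to stimulation or tissue handling, 2 were higher and 11 lower (median -0.41, 37.1% called against 14.3% of all genes). Ier3 (-0.997, adjusted p = 0.000176) and Fosb (-0.85, adjusted p = 0.000858) were lower, and the small heat shock protein Hspb1 was higher (1.20, adjusted p = 2.21e-08). Type II and putative cells were both above the type I means of these 3 genes, as with Fosb at 159 ± 78.3 CPM in type II and 261 ± 32.3 CPM in putative cells against 61.1 to 64.5 CPM. The classes also differed in depth and in mitochondrial share, which is made of the mitochondrially encoded transcripts themselves. The part of depth in these lists was not tested beyond thinning, after which 423 of 2155 genes were called. That of mitochondrial share was not tested.

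Type II cells with at least 1 Prph UMI numbered 10, 10, 20 and 18 in mice 1 to 4. With those cells alone on the type II side, selected by a type II marker and so no independent support for it, 1937 of 6524 genes were called, and the type II sums drew together. Dupd1 stood at 2040, 1996, 2810 and 1624 CPM and Myl1 at 8726, 9528, 9379 and 6515 CPM in type II, without the low value of mouse 1 seen with all cells. The summed type I markers were at 2684 to 3150 CPM in type II, against 5643 to 9239 CPM in putative cells, where all type II cells gave 3099 to 8299 CPM. The neuronal nuclear protein Rbfox3, not called with all cells (-0.30, adjusted p = 0.47), was then lower (-3.27, adjusted p = 1.2e-06), and Slc17a6, higher with all cells, was not called (0.35, adjusted p = 0.221). The satellite glial sum of the Prph cells was higher than in putative cells in 4 of 4 mice, at 13886 ± 701 CPM in type II against 8639 ± 472 CPM in putative cells (0.69, exact p = 0.125).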

How the data were processed

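Droplet libraries of 3' transcript ends were made from 4 mice with the 10x Genomics chemistry, per the labels. The authors deposited raw UMI counts per gene and cell, with a cell annotation that gives the mouse and the neuron class; the submitters' processing notes name Cell Ranger 2.0.1, Seurat 1.4 and mm10. The sources used here do not say how cells were filtered. Of the annotated cells, 26 barcodes recurred in 2 or more mice, none within the 2 classes compared. No doublet caller was run.

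Raw counts were summed per mouse and class (4 sums a side, 18143 genes). Genes were filtered with filterByExpr, scaled by TMM and tested in edgeR 4.0.16 (R 4.3.3) with the quasi-likelihood test, the mouse as a block, since both classes come from the same 4 mice. Benjamini-Hochberg adjusted p-values cover all genes tested, and 0.05 was the threshold. The script was tested on simulated data. DESeq2 1.42.0, scaling, filtering, leaving out each mouse, thinning each cell to 2629 UMIs (the 10th percentile) and other choices of cells were alternatives. Single sums were compared by a two-sided exact permutation of signs over 4 mice, which cannot go below p = 0.125. The exact p-values rest on the differences of these 4 mice alone. Those of edgeR rest on a spread between mice that is mostly shared across genes (29.2 prior against 3 residual degrees of freedom). A wide spread of 1 gene over the mice therefore weighs little in its own p-value. Intervals and floors (3 counts) cover counting error only.

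Named genes were the 12 highest and 12 lowest called log2 differences with at least 20 UMIs and 1 direction in every mouse, up to 4 called members of each of 21 function lists with the largest difference, every detected marker of 12 cell type lists, and Fabp7; other genes named were chosen after their values were seen. The classes compared and the lists were chosen with earlier results of these data known. Results for a few genes are not reported here.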

Additional observations from a re-analysis of the deposited data

Results flagged for a closer look

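Of 102 per-mouse log2 differences (type II minus putative, n = 4 mice each), 8 had 1 mouse lying far from the other 3, where chance gives about 1 in 20. Mouse 4 stood apart in 4 of them. There the difference of Gria4 was -2.024, against -0.595 to -0.417 in the others, that of Pcdh17 was 1.833 against 2.958 to 3.03, that of Lgals1 was 2.042 against 0.756 to 0.851, and that of mt-Nd4l was -1.657 against -0.632 to -0.451. In mouse 1 the difference of Cacna2d2 was 1.845 against 3.184 to 3.367, and that of Rpl3 was 0.803 against 0.974 to 0.99. In mouse 3 the difference of Efna5 was 3.87 against 3.241 to 3.311. In mouse 2 the difference in median UMIs per cell was 0.838 against 1.187 to 1.236. Apart from Gria4, no call of these genes was lost without any 1 mouse.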

How the results depend on the processing

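With all cells, 1086 genes were called. DESeq2 called 576, a fit over all 20 sums 1739, thinned cells 423, the repeat without the Fabp7 cells 636, type II cells with a Prph UMI 1937, and leaving out each mouse 654 to 1204, the lowest without mouse 3. Without the Fabp7 cells, DESeq2 called 371, all 20 sums 1185, and leaving out each mouse 383 to 662. Without the mouse as a block, 797 genes were called with all cells and 503 without the Fabp7 cells. Among single values, dropping the pairing gave p = 0.0286 for the type II marker sum (2.90) and for the mitochondrial share (-0.67), by an exact permutation of 8 values. The satellite glial sum differed by 0.03 with all cells, by -0.59 without the Fabp7 cells and by -0.101 to 0.207 leaving out each mouse, so its sign depends on these choices. Pou4f1 (0.42, not called) was at -1.16 in Prph cells (adjusted p = 0.0483), but higher at 0.84 without the Fabp7 cells (0.0421) and at 0.74 without mouse 2 (0.0343). Fabp7 (0.14) was at -0.73 after thinning (adjusted p = 0.000475), and Apoe (0.03) at -0.48 after thinning (0.046) and -0.74 without the Fabp7 cells. The causes were not tested. Under DESeq2 112 named results kept their direction and side of the threshold and 16 lost their call, and without the Fabp7 cells 103 and 14. Depth limits the comparison most in mouse 2, with 15 type II cells and 131668 UMIs.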

Other observations

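Markers of other cell types were sparse in both classes. Of 2 tested macrophage markers, 1 endothelial or pericyte marker, 3 erythroid markers and 2 markers of supporting and limbus cells, 0 were called in either direction by edgeR's quasi-likelihood test or by DESeq2, with 1, 1, 2 and 1 lower in type II at an unadjusted p under 0.05. Summed macrophage markers were at 87.1 ± 29.5 CPM in type II and 117 ± 63.1 CPM in putative cells, and Ptprc, the pan-leukocyte surface phosphatase, had no UMI in type II. Summed erythroid markers were at 833 ± 703 CPM in type II and 1035 ± 716 CPM in putative cells. Of the tectorial membrane genes of supporting cells, Tecta, Tectb and Otogl had no UMI in type II and Otogl none in putative cells. Of 5 tested inhibitory, cholinergic and monoamine receptors 1 was lower (20.0%, against 14.3% of all genes), the glycine receptor subunit Glrb (-0.65, adjusted p = 0.0114), which was not called without mouse 3 (0.16), mouse 4 (0.0993) or the Fabp7 cells (0.178). Without the Fabp7 cells 6 were tested and 1 was higher, the serotonin receptor Htr2c (1.95, SE 0.44, adjusted p = 0.00206, also called by DESeq2), at 26.2, 63.8, 49.6 and 25.997 CPM in type II against 10.5, 6.93, 11.2 and 11.9 CPM in putative cells. Calca, the gene of the neuropeptide CGRP, was too low to test, at 14.6, 15.2, 20.5 and 68.2 CPM in type II against 0, 0.624, 0 and 1.07 CPM in putative cells, and its pooled ratio, 33 UMIs against 2, was 55.3 (exact 95% interval 14.1 to 475).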
